A study of Mus musculus with 18 samples.

Results

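The 10 genes described here encode the core of the Gq signalling route, from the G protein to its second messenger targets. They are the alpha subunit genes Gnaq and Gna11, the phospholipase C beta genes Plcb1, Plcb3 and Plcb4, the protein kinase C (PKC) genes Prkca, Prkcd and Prkce, and the inositol trisphosphate (IP3) receptor genes Itpr1 and Itpr2. They were chosen by name from the 55450 genes of the count table, and all 10 were present and passed the filter on low counts, after which 16270 genes were tested. RNA was sequenced from the left ventricle (LV) of 18 male FVB/N mice aged 20 weeks, 1 library per heart. Gαq mice, which overexpress the alpha subunit of Gq in the heart, and wild type (WT) mice ate control diet (CD) or chow with the SGLT2 inhibitor ertugliflozin (ERTU, 0.5 mg per g) for 16 weeks, beginning when they were 4 weeks old. The groups held 4 WT mice on CD, 5 WT mice on ERTU, 5 Gαq mice on CD and 4 Gαq mice on ERTU. The transgenic line is driven by the cardiomyocyte promoter of the α-myosin heavy chain gene Myh6, so the added Gnaq transcript is made in one cell type of a mixed tissue, and the counts do not separate it from the mouse's own Gnaq transcript.

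As background, receptors for angiotensin, endothelin and noradrenaline activate Gq and its close relative G11, which switch on phospholipase C beta. That enzyme splits the membrane lipid PIP2 into diacylglycerol, which activates PKC, and IP3, which opens calcium channels of the endoplasmic and sarcoplasmic reticulum and of the nuclear envelope. In the heart this route is known for hypertrophic growth, and prolonged activity for dilation and failure.

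Library totals ran from 15383566 to 20908363 counts, and log2 CPM (counts scaled to a fixed library total) correlated between libraries of a group at 0.971 to 0.988. Nppa, a stress-induced natriuretic peptide gene, was at least 10630 CPM in every Gαq library and at most 725.2 CPM in every WT library. Rxfp1, a relaxin receptor gene, was at least 59.9 CPM in every Gαq library and at most 5.77 CPM in every WT library. The summed level of 10 cardiomyocyte markers, none of them at 0, ran from 76500 to 109000 CPM in WT and from 75100 to 100000 CPM in Gαq libraries. Its group medians were 98200 (WT CD), 101000 (WT ERTU), 81700 (Gαq CD) and 84500 CPM (Gαq ERTU), and by genotype 5 of the 10 were called, 1 higher and 4 lower. The summed level of 8 fibroblast markers ran from 3050 to 6080 CPM in WT and from 4520 to 6980 CPM in Gαq libraries, with 5 of 8 called higher by genotype. The 8 smooth muscle and pericyte markers summed to 1800 to 2130 CPM in WT and 1370 to 1990 CPM in Gαq libraries, with 2 of 8 called lower. Of 8 endothelial markers, 2 were called lower as well. Beside these counts, 19.6% of all genes tested were called by genotype. The part of these cell types in the results below was not tested. In bulk tissue, fewer cells of a type and less RNA per cell cannot be told apart.

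The coding sequences of Gnaq and Gna11 were compared because a transgene made at many times the normal level could add reads to a near copy. Each is 1077 bases long and encodes 359 residues. They shared 80.5% of bases and 89.1% of residues in an ungapped comparison. Of the 978 windows of 100 bases, the read length, in the Gnaq coding sequence, none occurred in a transcript of another gene (0 other genes) in the GENCODE M21 annotation of GRCm38.

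The first comparison asked how far each gene differed between Gαq and WT. Of the 10 genes, 4 were called by genotype with diet in the model (edgeR quasi-likelihood test, Benjamini-Hochberg adjusted p under 0.05 over all genes tested), where 19.6% of all genes were called. Gnaq and Prkca rose, and Prkce and Itpr2 fell. The median absolute log2 fold change of the 10 genes was 0.184, against 0.16 over all genes. Within one diet, 2 of 10 genes (Gnaq and Prkca) were called on CD, where 8.1% of all genes were called, and 1 of 10 (Gnaq) on ERTU, where 8.17% were called. Gnaq is the gene these mice overexpress, so its call was set by the design. With Gnaq left out, 3 of 9 genes were called by genotype, 1 of 9 on CD and 0 of 9 on ERTU.

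**Figure D1:**
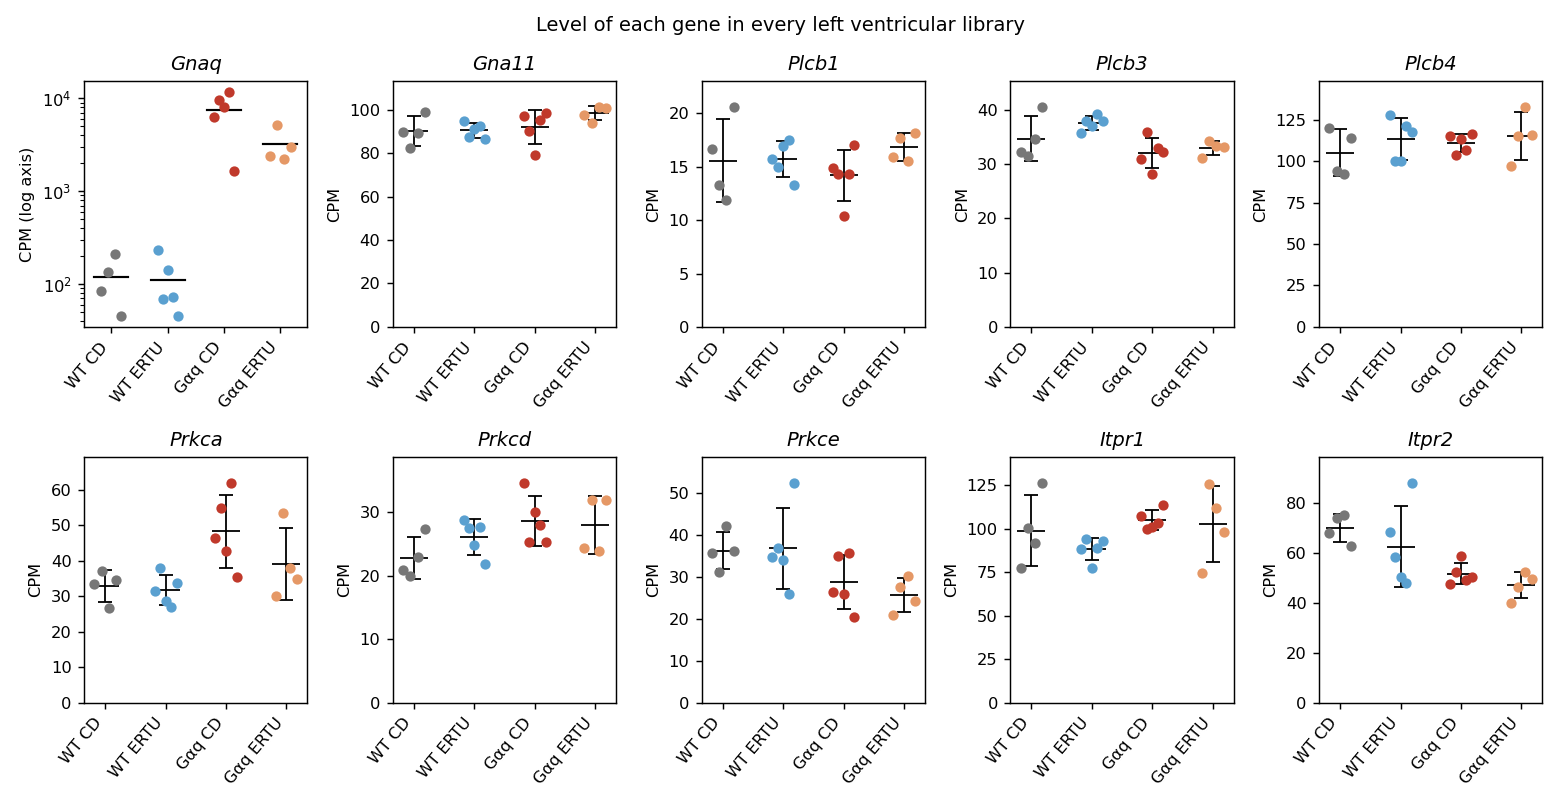
Level of each of the 10 genes in CPM (y axis, logarithmic for Gnaq and from 0 for the others) in the 18 libraries, 1 point per library, by group, with the group mean as a line and its SD as bars (no SD for Gnaq). The 9 Gαq libraries lie above the 9 WT libraries for Gnaq alone.

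Gnaq (ENSMUSG00000024639, chr19:16132831-16387463, GRCm38) encodes the alpha subunit of Gq. Its level was 83.61, 133.5, 208.7 and 45.53 CPM in the WT CD libraries, and 229.5, 68.55, 140.6, 72.04 and 45.45 CPM in the WT ERTU libraries. In the Gαq CD libraries it was 6299, 9693, 8037, 11660 and 1639 CPM, and in the Gαq ERTU libraries 2390, 5202, 2234 and 3028 CPM. No Gαq library overlapped a WT library, and the lowest Gαq library stood 7.14-fold above the highest WT library. Over all genes, 3.55% separated the 9 Gαq from the 9 WT libraries without overlap. The gene took up to 1.19% of all counts. On CD, Gαq exceeded WT by 5.94 in mean log2 CPM (61.3-fold, 2-sided exact permutation p = 0.0159, n = 5 and 4). On ERTU the excess was 5.01 (32.3-fold, exact permutation p = 0.0159, n = 4 and 5). That p is the smallest that splits of 4 against 5 libraries allow.

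The spread of Gnaq within a genotype was wide. It ranged 7.11-fold among Gαq libraries and 5.05-fold among WT libraries, with a coefficient of variation of 60.0% over the 9 WT libraries. The transcript of Gna11 varied by 5.46% in the same 9 libraries. Myh6, whose promoter drives the transgene, was lower in Gαq, at a log2 fold change of -0.46 ± 0.13 (SE, adjusted p = 0.0131).

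Gαq mice on ERTU had a lower mean Gnaq level than those on CD, 3214 ± 1369 CPM (SD, n = 4) against 7466 ± 3814 CPM (SD, n = 5). The groups overlapped, because library 10 of Gαq CD, at 1639 CPM, was the lowest of all Gαq libraries. The difference in mean log2 CPM was -1.04, smaller than the spread between libraries could show (exact permutation p = 0.143). Without library 10 it was -1.52, with no overlap and an exact permutation p of 0.0286, the smallest that 70 splits allow. Library 10 was singled out for its low value, so this fit was picked from the data. In the other 8 of 9 fits that left out 1 library, the exact permutation p ran from 0.143 to 0.257. The fit across all genes put it at -1.22 ± 0.52 (SE, unadjusted p = 0.0294, adjusted p = 0.653). In WT mice the diets differed by -0.11 in mean log2 CPM (exact permutation p = 0.81). The difference between these diet effects had an adjusted p of 0.9996.

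Gna11 (ENSMUSG00000034781, chr10:81528724-81545190) encodes the alpha subunit of G11, which couples to the same receptors. It stood at 82.19 to 99.03 CPM in WT libraries (median 89.89) and at 79.27 to 101.1 CPM in Gαq libraries (median 97.35). The ranges overlapped, although 8 of 9 Gαq libraries lay above the WT median. The log2 fold change by genotype was 0.08 ± 0.05 (SE, adjusted p = 0.37). Per length of the annotated exons, as RPKM (CPM divided by exon length in kilobases), Gnaq made 43.5% ± 16.4 (SD, n = 4) of the sum of both genes in WT CD and 97.1% ± 3.03 (SD, n = 5) in Gαq CD. These RPKM values use the whole annotated Gnaq gene, and the length of the transgene's transcript was not used here.

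Among the phospholipase C beta genes, none of 3 was called by genotype. Plcb4 (ENSMUSG00000039943, chr2:135659011-136014593) was the most abundant per length, with 64.7% ± 2.82 (SD, n = 4) of the summed RPKM of the 3 genes in WT CD and 67.8% ± 2.77 (SD, n = 5) in Gαq CD. It ran from 92.42 to 128.2 CPM in WT (median 114.1) and from 96.91 to 132.6 CPM in Gαq libraries (median 115.1), with a log2 fold change of 0.05 ± 0.07 (SE, adjusted p = 0.693). Plcb1 (ENSMUSG00000051177, chr2:134786067-135475258), the least abundant of the 10 genes per length in every group, ran from 11.86 to 20.57 CPM in WT and from 10.42 to 18.14 CPM in Gαq libraries. Its log2 fold change was -0.02 ± 0.11 (SE, adjusted p = 0.942), and its sign was not stable between settings.

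Plcb3 (ENSMUSG00000024960, chr19:6952325-6976470) came nearest to a call among the phospholipases. On ERTU it was 31.05, 34.23, 33.3 and 33.24 CPM in Gαq libraries and 35.77, 37.98, 36.94, 39.14 and 37.91 CPM in WT libraries. All 4 Gαq ERTU libraries thus lay below all 5 WT ERTU libraries, whereas on CD the groups overlapped (28.2 to 35.87 CPM in Gαq against 31.42 to 40.45 CPM in WT). On ERTU, 10.9% of all genes separated the Gαq from the WT libraries without overlap. The log2 fold change was -0.19 ± 0.09 (SE, adjusted p = 0.208) on ERTU and -0.15 ± 0.06 (SE, adjusted p = 0.0818) by genotype. Without library 7 of Gαq CD the adjusted p by genotype was 0.0445.

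Of the 3 PKC genes, Prkca rose and Prkce fell by genotype, and Prkcd did not pass the test. Prkca encodes PKC alpha, a calcium-dependent isozyme and the main conventional PKC of the heart, known to depress contractility. Prkce encodes PKC epsilon, a calcium-independent isozyme linked to growth and to protection from ischaemia, and Prkcd encodes PKC delta, also calcium-independent and linked to cell death.

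Prkca (ENSMUSG00000050965, chr11:107933387-108343928) was 33.36, 37.0, 26.72 and 34.56 CPM in WT CD and 46.56, 55.02, 42.74, 61.93 and 35.54 CPM in Gαq CD. In WT ERTU it was 31.57, 37.92, 28.56, 26.93 and 33.73 CPM, and in Gαq ERTU 30.01, 53.5, 37.93 and 34.99 CPM. Of the 9 Gαq libraries, 6 lay above every WT library, and the groups overlapped through the lower Gαq libraries. The ratio of mean CPM was 1.37, with a log2 fold change of 0.43 ± 0.12 (SE, adjusted p = 0.0137) by genotype. On CD the log2 fold change was 0.55 ± 0.17 (SE, adjusted p = 0.0474). This call was close to the threshold: it was kept in 4 of the 18 fits that left out 1 library, those without libraries 10, 14, 16 or 17, and the adjusted p over the 18 ran from 0.0185 to 0.135. Fitting only the groups compared gave 0.0516, and limma on the deposited variance-stabilized values 0.0505. On ERTU the log2 fold change was 0.30 ± 0.17 (SE, adjusted p = 0.311), or 0.11 without library 17 of Gαq ERTU, and the difference between the diets in this effect had an adjusted p of 0.9996.

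Prkce (ENSMUSG00000045038, chr17:86167785-86657919) went the other way. It was 35.67, 31.13, 41.93 and 36 CPM in WT CD and 26.41, 34.86, 25.92, 35.55 and 20.46 CPM in Gαq CD. In WT ERTU it was 34.69, 36.7, 34.04, 25.93 and 52.27 CPM, and in Gαq ERTU 20.82, 27.64, 30.14 and 24.29 CPM. All 9 Gαq libraries lay below the WT median of 35.67 CPM, although the groups overlapped. The log2 fold change by genotype was -0.42 ± 0.13 (SE, adjusted p = 0.0195). Within a diet it was not called, at -0.34 ± 0.18 (SE, adjusted p = 0.294) on CD and -0.51 ± 0.18 (SE, adjusted p = 0.0886) on ERTU. Without library 14, the lowest of WT ERTU, the adjusted p on ERTU was 0.029. That was 1 of 18 fits that each left out 1 library. In the other 17 Prkce was not called on ERTU, with an adjusted p of up to 0.246.

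Prkcd (ENSMUSG00000021948, chr14:30595354-30626210) was 19.98 to 28.7 CPM in WT libraries (median 24.88) and 23.87 to 34.58 CPM in Gαq libraries (median 27.93). Its log2 fold change was 0.22 ± 0.09 (SE, adjusted p = 0.106), which did not pass. As a share of the summed RPKM of the 3 PKC genes, Prkce made 39.1% ± 4.23 (SD, n = 4) in WT CD and 27.0% ± 2.91 (SD, n = 5) in Gαq CD, and Prkca 28.8% ± 4.64 and 36.9% ± 3.11. Prkce had the highest mean share in both WT groups and the lowest in both Gαq groups. In WT ERTU its lead was within the spread, at 37.6% ± 6.52 against 35.9% ± 6.14 for Prkcd (SD, n = 5). The shares are not independent of each other, since they sum to a whole.

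**Figure D2:**
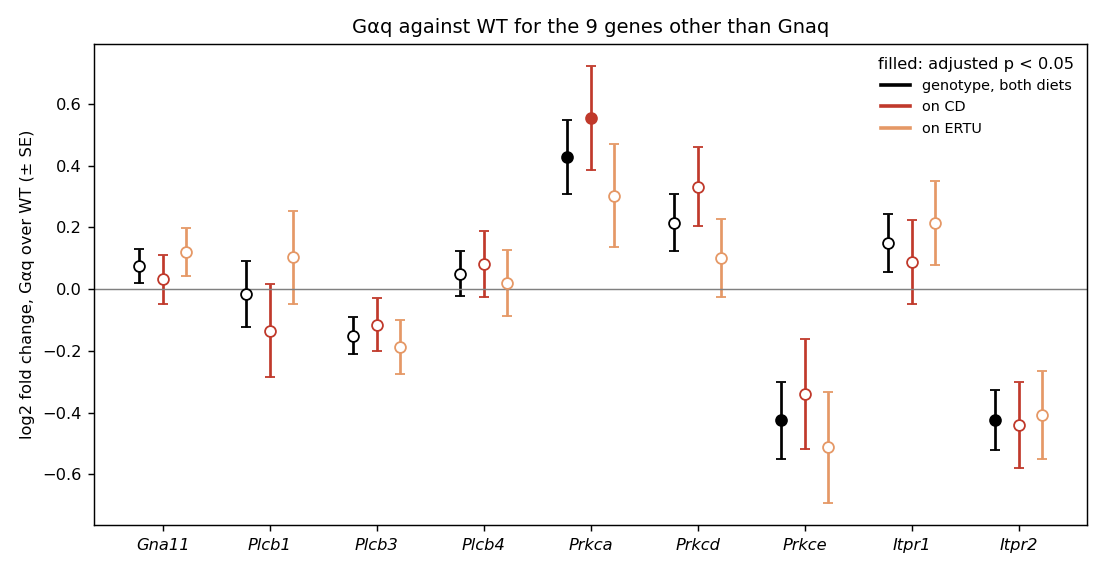
Log2 fold change of Gαq over WT (y axis, bars ± SE) for the 9 genes other than Gnaq, for genotype with diet in the model, on CD and on ERTU. Filled points passed an adjusted p of 0.05. Prkca lies above 0, and Prkce and Itpr2 below 0, in all 3 comparisons.

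Of the IP3 receptor genes, Itpr2 fell and Itpr1 did not pass the test. Itpr2 (ENSMUSG00000030287, chr6:146108299-146502223) encodes the main IP3 receptor of cardiomyocytes, found at the nuclear envelope and near the ryanodine receptors. It was 67.93, 73.88, 74.84 and 62.72 CPM in WT CD and 47.48, 52.07, 58.47, 49.07 and 50.43 CPM in Gαq CD, with no overlap. On CD, 9.29% of all genes separated the genotypes in this way. In WT ERTU it was 68.18, 58.14, 50.04, 47.99 and 87.8 CPM and in Gαq ERTU 39.99, 46.19, 52.43 and 49.41 CPM, where the groups overlapped. The log2 fold change was -0.42 ± 0.10 (SE, adjusted p = 0.00327) by genotype, a ratio of mean CPM of 0.753. On CD alone it was -0.44 ± 0.14 (SE, adjusted p = 0.0596). Itpr2 was called there by DESeq2 (adjusted p = 0.0392), by voom (adjusted p = 0.0265) and by the fit of only the groups compared. In the other 5 of 8 settings it was not called. Nor was it in 16 of 18 fits that left out 1 library, where the adjusted p over the 18 ran from 0.015 to 0.146. On ERTU the log2 fold change was -0.41 ± 0.14 (SE, adjusted p = 0.0838), or -0.25 without library 15 of WT ERTU and -0.49 without library 14.

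Itpr1 (ENSMUSG00000030102, chr6:108213096-108551109) encodes the IP3 receptor best known from neurons and smooth muscle. It ran from 77.09 to 126.2 CPM in WT (median 91.85) and from 74.33 to 125.7 CPM in Gαq libraries (median 103.4), with a log2 fold change of 0.15 ± 0.09 (SE, adjusted p = 0.291). Its share of the summed RPKM of both receptors was 53.0% ± 6.24 (SD, n = 4) in WT CD, 53.9% ± 5.36 (SD, n = 5) in WT ERTU, 62.2% ± 2.72 (SD, n = 5) in Gαq CD and 63.4% ± 3.8 (SD, n = 4) in Gαq ERTU.

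**Figure D3:**
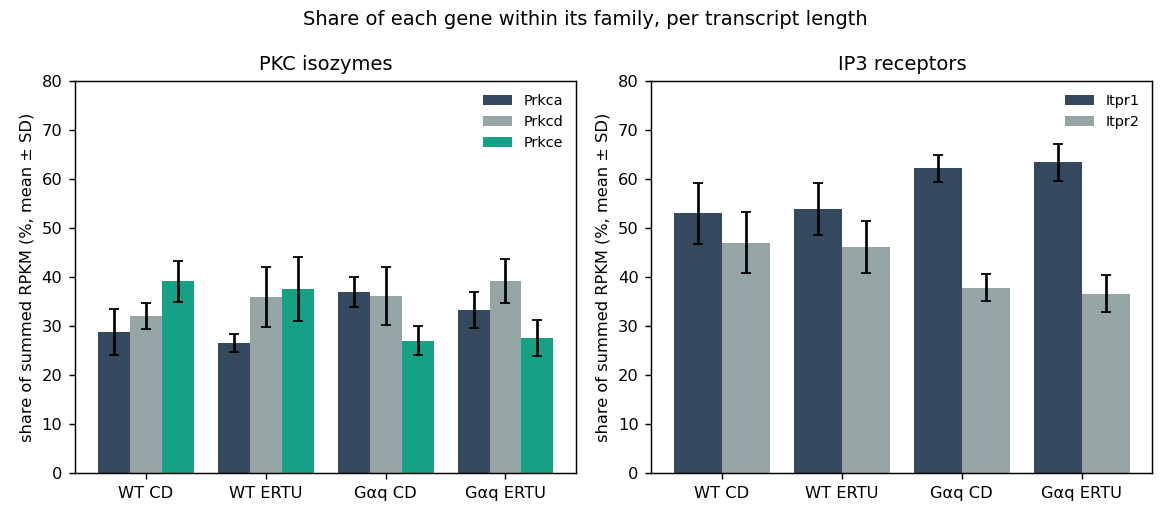
Share of each gene in the summed RPKM of Prkca, Prkcd and Prkce, or of Itpr1 and Itpr2 (y axis, percent, bars are means ± SD over libraries), in the 4 groups. The share of Prkce was 39.1% in WT CD and 27.0% in Gαq CD, and that of Itpr1 53.0% and 62.2%. The level of Itpr1 was not called, and its share rises wherever that of Itpr2 falls.

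In order of level per length, Gna11 led in WT CD at 21.99 RPKM, followed by Gnaq at 19.1 RPKM, which it did not exceed beyond the spread of Gnaq (SD 11.4). Plcb4 came next at 11.7 RPKM. Itpr1, Plcb3, Prkce, Itpr2, Prkcd and Prkca lay between 3.66 and 5.4 RPKM, where the ranges of mean ± SD of neighbours overlapped, and Plcb1 was last at 1.40 RPKM. In Gαq CD, Gnaq led at 1207 RPKM.

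The second comparison asked whether ERTU changed these genes. None of the 10 (0) was called by diet, in WT, in Gαq or for the interaction. For diet and for ERTU in WT, 0 of 16270 genes were called (0.0%), while 1252 and 365 had an unadjusted p under 0.05. DESeq2 called 2 genes by diet and 0 for ERTU in WT, none of them a member. For ERTU in Gαq, 1 gene (0.00615%) was called. Of the 10 members, 0 had an unadjusted p under 0.05 for diet, ERTU in WT or the interaction, and 1, Gnaq, had one for ERTU in Gαq. Without Gnaq, the members' log2 fold changes for ERTU in Gαq lay between -0.31 (Prkca, SE 0.17, adjusted p = 0.656) and 0.25 (Plcb1, SE 0.15, adjusted p = 0.663).

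Because Gnaq varied 7.11-fold among Gαq hearts, its level was set against each other member over the 9 Gαq libraries and, separately, the 9 WT libraries, 18 relations in all. Prkca had the highest correlation with Gnaq in Gαq hearts, at Pearson's r = 0.856 (exact permutation p = 0.00551, adjusted p = 0.0992) and Spearman's rho = 0.80 (exact permutation p = 0.0138, adjusted p = 0.193). After each diet group was centred on its mean, r was 0.811, and without the 2 libraries farthest from the median (10 and 18) it was 0.89. By r, Prkce came next, with r = 0.75 (exact permutation p = 0.0233, adjusted p = 0.21) and rho = 0.683 (exact permutation p = 0.0503, adjusted p = 0.226), 0.75 after centring and 0.893 without those libraries. The sign of r for Prkce within Gαq hearts was thus opposite to the direction of its change by genotype. Negative relations were seen for Gna11 (r = -0.594, rho = -0.767, exact permutation p of rho 0.0214, adjusted p = 0.193) and Plcb1 (r = -0.576, rho = -0.683). By rho, that of Gna11 was stronger than that of Prkce. In WT hearts, r was -0.407 for Prkca and -0.185 for Prkce. None of the 18 relations (0) passed after adjustment.

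**Figure D4:**
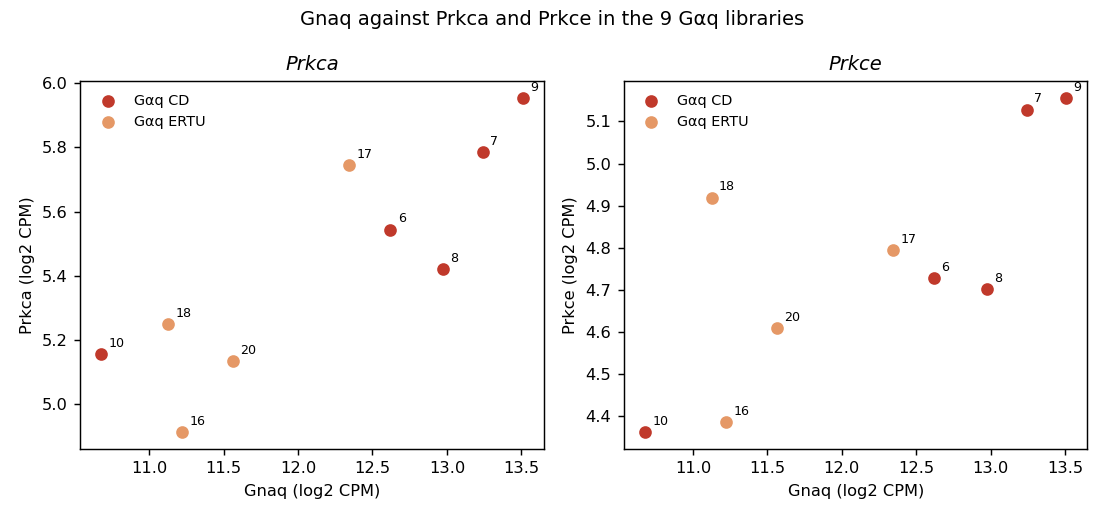
Gnaq (x axis) against Prkca and Prkce (y axes), all in log2 CPM, in the 5 Gαq CD and 4 Gαq ERTU libraries, numbered as in the count table. Both genes are highest in libraries 7 and 9, which have the most Gnaq.

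Of 13094 genes with a mean log2 CPM of at least 1, those whose level was most like Gnaq over the 9 Gαq libraries were Wdfy1 and Tubb4b (Pearson's r = 0.984 each) and Gm41505 (r = 0.982). Over all 18 libraries, Prkca was most like Prkg1 (r = 0.903) and Camta1 (r = 0.895), Prkce most like Tmc7 (r = 0.912) and Slc16a10 (r = 0.896), and Itpr2 most like Prpf4 (r = 0.848) and Ralgapa2 (r = 0.83). These are the highest of many correlations and are given as a description.

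The rest of the pathway was read from 9 lists of 99 genes, of which 92 were tested. By genotype 16 were called, 11 higher and 5 lower, against 19.6% of all genes, and by diet none (0). Of 10 tested genes for other phospholipases C, 3 rose and none fell. Plcd3, a delta-type enzyme, rose from 21.7 ± 4.52 to 36.7 ± 7.57 CPM (SD, n = 9 each), with a log2 fold change of 0.77 ± 0.13 (SE, adjusted p = 0.0003). Plcg2, a gamma-type enzyme known from immune cells, rose by a log2 fold change of 0.55 ± 0.11 (SE, adjusted p = 0.000817), and the inactive phospholipase-like Plcl2 by 0.34 ± 0.07 (SE, adjusted p = 0.00215).

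Genes of PIP2 supply gave 4 calls among 13. Cds1, which makes the CDP-diacylglycerol used to rebuild phosphatidylinositol, fell from 11.4 ± 1.52 to 3.93 ± 0.614 CPM (SD, n = 9 each), with a log2 fold change of -1.53 ± 0.11 (SE, adjusted p = 3.45e-09). Its relative Cds2 stood at 273 ± 20.8 CPM in WT and 244 ± 17 CPM in Gαq hearts (SD, n = 9 each, adjusted p = 0.066). The phosphatidylinositol 5-phosphate kinase genes Pip4k2c and Pip4k2a rose by log2 fold changes of 0.25 and 0.32. Among 10 genes of IP3 metabolism and IP3 receptor 3, Impa2, an inositol monophosphatase that recycles inositol, was the 1 call and fell by 0.99 on the log2 scale (SE 0.17, adjusted p = 0.0003).

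Of 13 tested G protein beta and gamma subunits, 3 rose, namely Gng8, Gng2 and Gnb5, with log2 fold changes of 1.54, 0.52 and 0.23. Their adjusted p-values were 0.00291, 0.0137 and 0.0457, the last close to the threshold. Gng8 was barely detected, at 0.513 ± 0.304 CPM in WT and 1.55 ± 0.708 CPM in Gαq hearts (SD, n = 9 each). Within a diet it was not called (adjusted p = 0.0751 on CD and 0.0569 on ERTU). Of 13 PKC anchors and substrates, Ldb3 (-0.39 ± 0.11, SE, adjusted p = 0.0172) and Cavin2 (-0.23 ± 0.07, SE, adjusted p = 0.0298) fell. None of 9 tested diacylglycerol kinases, which remove the PKC activator, was called (0 of 9), and Gna15, the 1 tested Gq-class alpha subunit outside the members, was at 1.08 ± 0.412 CPM in WT and 1.4 ± 0.297 CPM in Gαq hearts (SD, n = 9 each, adjusted p = 0.333).

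The most abundant genes of these lists, other than Ldb3 above, were not called by genotype where they are named here. The beta subunit genes Gnb1 and Gnb2 had log2 fold changes of 0.06 and -0.05, and the phospholipase genes Plcg1 and Plce1 of -0.09 and 0.06. For Pi4ka, a kinase of the PIP2 route, the value was -0.11, and for the IP3 phosphatase and kinase genes Inpp5a and Itpkb it was -0.01 and -0.21. The diacylglycerol kinase genes Dgkd and Dgkz gave 0.05 and -0.03, Pkn2 gave -0.08, and the PKC-binding gene Pdlim5 gave 0.07. Adjusted p-values of these 11 genes ran from 0.118 (Itpkb) to 0.952 (Inpp5a).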

How the data were processed

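Gene counts per LV library were deposited by the authors. Per the labels and methods, poly(A) libraries were sequenced as paired reads, aligned with STAR 2.6.0c to mm10 and counted per Ensembl gene with featureCounts (Subread 1.6.2) from uniquely aligned proper pairs. The deposited log2-scale variance-stabilized values, made with DESeq2, served as an alternative. Reads that aligned to several places were not counted, which can lower counts of shared stretches.

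Counts were scaled to library totals with TMM factors, filtered with filterByExpr and tested with edgeR 4.0.16 (R 4.3.3) quasi-likelihood fits, checked on simulated counts. Genotype and diet were fitted additively, while pairwise contrasts and the interaction came from a 4-group model. Benjamini-Hochberg adjustment ran over 16270 genes. The SE of a log2 fold change was derived from the test, as the absolute log2 fold change divided by the square root of the F statistic. Log2 CPM used a prior count of 2. Symbols were matched to GENCODE M21 for 99.5% of identifiers. Members and lists were chosen with earlier results of these data known. Genes named besides the members were, per list, the 2 most abundant and up to 3 called by genotype with the smallest adjusted p, the genes most correlated with Gnaq and the called members, and Nppa, Rxfp1 and Myh6. Alternatives used DESeq2 1.42.0 and limma 3.58.1. Count columns were assigned to groups by name. Libraries are separate hearts, and intervals cover the spread between them. Some results of the pathway lists are not reported here.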

Additional observations from a re-analysis of the deposited data

Results flagged for a closer look

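No value was far enough from its group to be picked out. In the 40 groups of values (10 genes in 4 groups), 0 had a highest or lowest library beyond Dixon's 95% critical value, where chance gives about 1 in 20 groups. No gene (0) moved in opposite directions with ERTU in the WT and Gαq groups without overlap.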

How the results depend on the processing

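The 4 genes called by genotype numbered 3 to 4 over the other settings (3 of 9 where Gnaq was left out of the scaling) and 4 to 5 when each library was left out. Calls for diet, ERTU in WT, ERTU in Gαq and the interaction stayed at 0 in every setting run. The count on CD (2) was 3 with DESeq2 and with voom, which added Itpr2, 2 with only the groups compared, where Itpr2 took the place of Prkca, 1 with limma on the variance-stabilized values, and 1 to 3 when libraries were left out. With Gnaq left out of the table, and so not counted, it was 1. The count on ERTU (1) was 0 with Gnaq left out, and 1 to 3 when libraries were left out, with Itpr2 added without library 13 and Itpr2 and Prkce without library 14. Plcb1 by genotype turned to 0.0439 with voom, and ranged from -0.055 to 0.0677 when libraries were left out, positive without libraries 1, 5 or 8. Gnaq for ERTU in WT ranged from -0.50 to 0.23 without 1 library, turning positive without libraries 2, 4 or 15. Gnaq for ERTU in Gαq ranged from -1.52 to -0.81, on CD from 5.55 to 6.42 and on ERTU from 4.75 to 5.33. Without the 2 farthest libraries, r of Gnaq with Plcb4 in Gαq was 0.162 and with Itpr2 in WT -0.325, against -0.323 and 0.015. The causes were not tested. No paired analysis was possible because the count columns carry no replicate number shared between the groups. Prkcd, Plcb3 and Itpr1 were not called by genotype or within a diet in the main fit. By genotype their unadjusted p (quasi-likelihood test) was 0.0284, 0.0196 and 0.125. Prkcd and Plcb3 thus missed the threshold only after adjustment over 16270 genes. An unadjusted p under 0.05 by genotype was seen for 6 of 10 members and for 5184 of 16270 genes. With 9 hearts per genotype, or 4 or 5 per group within a diet, differences of this size could be missed.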
